A study of Mus musculus with 14 samples.

Results

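This report describes the cyclins D and E and the kinases they activate in peritoneal B-1a cells from mice lacking Bmi1 and from wild-type mice. The members were every non-control array probe whose gene name was Ccnd1, Ccnd2, Ccnd3, Ccne1, Ccne2, Cdk2, Cdk4 or Cdk6, which gave 12 of 55681 probes and 8 of 34821 gene names. Expression was measured on 14 one-colour arrays, 7 from Bmi1 KO cells and 7 from WT cells, in 2 sets of experiments. Set 1 held 3 KO and 3 WT arrays, and set 2 held 4 KO and 4 WT arrays. All samples were B-1a cells of the peritoneal cavity, with no treatment named in the labels. The sources used here do not give the strain, age and sex of the mice, the part of Bmi1 that was deleted, or whether cells of several animals were pooled. Because the labels do not tie samples to separate animals, each p-value reflects the spread among these samples alone, and that spread may be technical.

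D-type cyclins bind the kinases Cdk4 and Cdk6 and, in response to growth signals, start the phosphorylation of the retinoblastoma protein; E-type cyclins then bind Cdk2 and carry the cell into S phase. Bmi1, a Polycomb protein, represses Cdkn2a, whose product p16Ink4a inhibits Cdk4 and Cdk6, so that this module lies downstream of the locus through which Bmi1 is best known to act. In mice, cyclin D2 is needed for proliferation after engagement of the B cell receptor and for the CD5+ B cell pool, and cyclin D3 for the expansion of pre-B cells.

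Sequences of 5 probes are shown because they bear on how the members could be read. The probes of Ccnd2 (chr6:127098696-127098755, minus strand, mm9) and of Cdk4 (probe 2, chr10:126503162-126503221, plus strand) gave signal on every array. The probe of Ccne2 (chr4:11131423-11131482, plus strand) gave none, and those of Ccne1 (probe 1, chr7:38882937-38882960, and probe 2, chr7:38885574-38885633, minus strand) did not follow each other over the arrays. G and C are in capitals, and for Ccne2 and Ccne1 the first 30 bases are given.
Ccnd2: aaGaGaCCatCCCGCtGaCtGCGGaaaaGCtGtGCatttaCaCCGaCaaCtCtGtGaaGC
Cdk4 probe 2: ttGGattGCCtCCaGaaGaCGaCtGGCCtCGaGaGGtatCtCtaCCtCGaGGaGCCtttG
Ccne2: ttataaaCtattGttaaGatatGaaGtttt
Ccne1 probe 1: GCatGtCCtGCCttCatGaaCtCttatttt
Ccne1 probe 2: ataaaaaCaCttttaCaGCttattGGGatt

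The Ccnd2 probe had 31 and this Cdk4 probe 33 G or C bases of 60, against a median of 26 over all probes. The Ccne2 probe had 9, a count as low as that of only 27 of the 55681 probes (0.0485%). Of those 27 probes 14.8% were well above background, here called detected, on at least 1 array, against 83.2% of all probes. The Ccne1 probes had 22 and 18 G or C bases, and the position given for the first covers 24 of its 60 bases. Cdk4 probes 1 and 3, with 25 and 22 such bases, were also detected on all 14 arrays. The Cdk6 probe, with 22, was detected on 1 KO and 3 WT arrays. Whether base content bears on the detection of the members was not tested. The other probes lay on chromosome 7 at 152116202 to 152116261 for Ccnd1, on chromosome 17 at 47736267 to 47736326 and 47736579 to 47736638 for Ccnd3, and on chromosome 10 at 128135658 to 128135717 for Cdk2. Cdk4 probes 1 and 3 lay at 126504174 to 126504233 and 126504279 to 126504338 of chromosome 10, and the Cdk6 probe at 3522106 to 3522165 of chromosome 5. The array design lists a further, predicted transcript for Cdk4 probe 3, so that its signal may be shared. Exon and UTR annotation of mm9 was not used here.

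Array brightness differed between the genotypes and bears on every value that follows. The share of probes well above background ran from 20.6% to 56.6% on the KO arrays and from 43.7% to 63.1% on the WT arrays, and 4 KO arrays but 0 WT arrays had under 40%: KO set 1 replicate 4 and KO set 2 replicates 1, 2 and 3. Of the 12 member probes, 5 to 11 were above background on a KO array and 8 to 11 on a WT array. Levels are log2 intensity minus the array's 75th percentile, and with that scaling the median KO minus WT difference was 0.32 over the 29679 tested probes and 1.07 over the 7057 probes above background on all 14 arrays. The Bmi1 probe at chr2:18607987-18608046 read -3.15 to 2.62 on the KO arrays (detected on 5 of 7) and -5.31 to -2.20 on the WT arrays (detected on 3 of 7). The difference was 3.74 (two-sided exact permutation within sets, p = 0.00286). Where this probe was not detected its values are background on arrays of unequal scale, so the test cannot show a change in Bmi1 RNA. The Bmi1 probe at chr2:18607531-18607590 read -1.55 to 3.78 and -3.12 to 2.09, a difference of 1.10 (p = 0.28, same exact test). With this scaling neither Bmi1 probe read lower on average in the libraries labelled KO, and values with other scalings are not given for them. Whether Bmi1 RNA differed is therefore not settled here. Because the deleted part is also unknown, these probes do not check the labels, so KO and WT are used as labels throughout. The B cell markers Ms4a1, Cd79a, Cd79b and Pax5 were above background on all 14 arrays. Of 6 B-1a markers 2 were detected on all arrays, with a summed log2 level of 8.36 to 13.4 in KO and 8.80 to 10.2 in WT, and Cd5, which defines B-1a cells, was detected on 3 of 7 KO arrays and 6 of 7 WT arrays. The other B-1a markers went both ways: mean levels were -0.23 in KO and 4.38 in WT for Bhlhe41 (detected on 4 KO and 7 WT arrays), 2.54 and 3.55 for Spn, 4.18 and 4.59 for Ctla4, 10.46 and 9.36 for Itgam, and 4.29 and 2.49 for Zcwpw1. Summed levels are the log2 of summed intensities, so the B-1a sum largely follows Itgam, by far the brightest of the 6 by mean level. Of 7 macrophage markers on the array 3 were above background throughout, with a summed log2 level of 3.50 to 9.49 in KO and 3.84 to 7.41 in WT. Of 6 T cell markers 1 was, with 1.25 to 4.68 in KO and 1.19 to 3.03 in WT. Summed levels were 2.03 to 5.97 in KO and 1.44 to 2.75 in WT for 3 follicular B-2 markers, 2.30 to 8.78 and 2.56 to 4.20 for 4 plasma cell markers, -0.18 to 3.52 and 0.86 to 2.62 for 5 mast cell markers, 3.65 to 7.04 and 3.60 to 5.44 for 4 eosinophil and neutrophil markers, and -3.53 to 1.37 and -3.68 to -0.60 for 4 mesothelial markers. Among these S100a8 was above background on no array, and the part of other cells in the results below was not tested. In bulk RNA, fewer cells of a type and less RNA per cell cannot be told apart.

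Over the whole set of members, 0 probes passed the threshold in Bmi1 KO B-1a cells. They were tested two-sided by limma with a term for experiment set, and p-values were adjusted by Benjamini-Hochberg over 29679 probes at a threshold of 0.05. Of the 12 member probes, 10 entered that test because they were detected on 4 or more of the 7 arrays of a genotype, and the Ccne2 and Cdk6 probes did not. Across all tested probes 0.0303% were called, with 1 higher (0.00337%) and 8 lower (0.027%) in KO, and the split was 1 higher and 131 lower when each array was scaled to the 7057 probes detected on all 14 arrays, called the all-array scaling below. Unadjusted p was under 0.05 for 2 of the 10 member probes, both of Cdk4, and both higher in KO, where the share over all tested probes was 13.5% (8.17% higher and 5.37% lower). The KO and WT arrays overlapped for all 10, and 0.249% of all tested probes had groups that did not overlap. The difference was above 0 for 7 of the 10, among them the 3 Cdk4 probes, and below 0 for 3. Over all genes tested, each by its brightest probe, it was above 0 for 13309 of 20407.

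**Figure D1:**
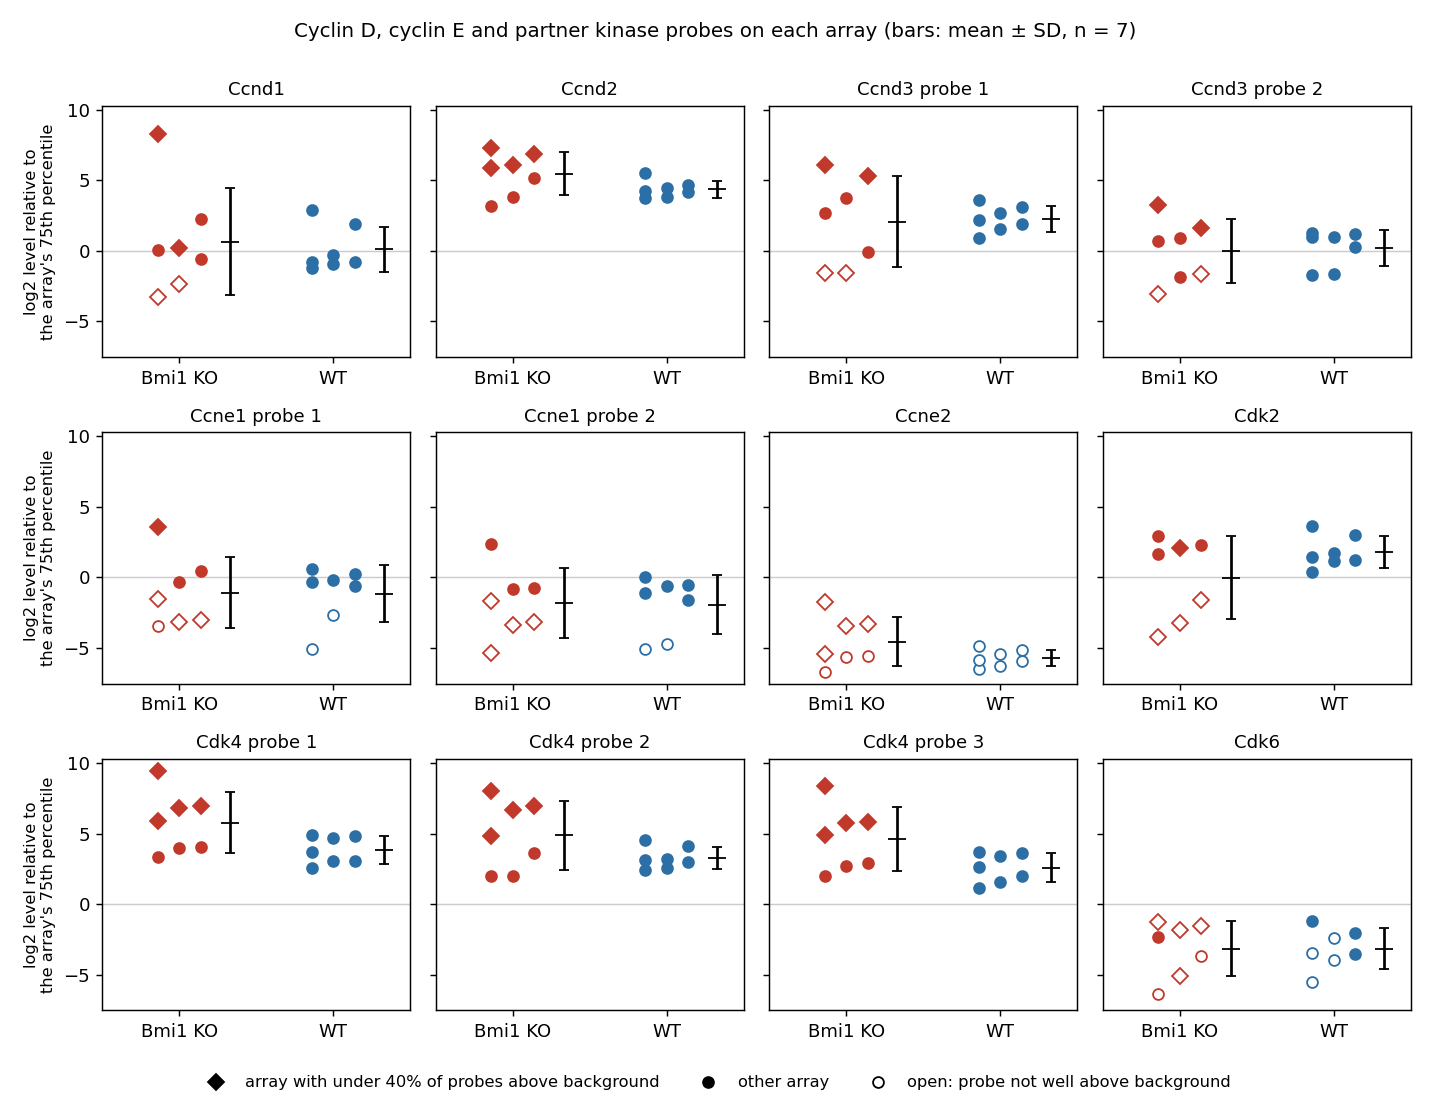
Level of each of the 12 member probes (log2 intensity relative to the array's 75th percentile) on the 7 Bmi1 KO arrays (red, left) and the 7 WT arrays (blue, right), with diamonds for KO arrays with under 40% of probes above background, open symbols for probes not well above background, and bars for the mean ± SD. For Ccnd2 and the Cdk4 probes the 4 diamonds lie above all WT arrays and the other KO arrays do not, and for Cdk2 3 of the 4 diamonds are open and lie below all WT arrays.

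Among the D-type cyclins, Ccnd2 was the one read on every array. It stood at 3.83, 5.13 and 7.25 in KO set 1 and at 6.07, 6.85, 5.87 and 3.16 in KO set 2. In WT it stood at 4.68, 4.45 and 3.72 in set 1 and at 4.16, 3.80, 4.21 and 5.49 in set 2. The 4 KO arrays above all WT arrays were those with under 40% of probes above background, while the other 3 KO arrays lay between 3.16 and 5.13. The mean was 5.45 ± 1.51 in KO and 4.36 ± 0.60 in WT (SD, n = 7 each), a difference of 1.09 (95% interval -0.37 to 2.55, limma adjusted p = 0.439). Before any scaling the mean log2 intensity of Ccnd2 was 11.8 ± 1.46 in KO and 11.8 ± 0.53 in WT (SD, n = 7 each). The sign of the Ccnd2 difference depended on the scaling: it was -0.24 with the all-array scaling and -0.21 with quantile normalization, and it was -0.38 without the 4 dim KO arrays.

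Ccnd3, the D-type cyclin of pre-B and germinal centre expansion, was detected on 5 KO and 7 WT arrays with each of its probes. Its first probe ran from -1.61 over a median of 2.65 to 6.10 in KO and from 0.92 over 2.19 to 3.57 in WT. KO arrays lay on both sides of the WT range, with 3 above all WT arrays and 3 below. The KO minus WT difference was -0.20 (95% interval -2.44 to 2.03, limma adjusted p = 0.938), and the interval leaves room for a change in either direction. Its second probe, with 2 KO arrays above and 2 below all WT arrays, differed by -0.21 (95% interval -1.94 to 1.53, limma adjusted p = 0.916). Pearson's r between the probes was 0.75 over the 14 arrays, which share their brightness, and 0.967 over the 7 KO arrays. These include KO set 2 replicates 1 and 2, on which both probes were at background. In WT the probes did not move together throughout: on WT set 2 replicate 4 probe 1 had its highest WT value, 3.57, and probe 2 stood at -1.62.

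The sets did not point the same way for Ccnd3. In set 1 its first probe averaged 4.16 ± 1.76 in KO and 2.44 ± 0.78 in WT (SD, n = 3 each), a difference of 1.71 (SE 1.54). In set 2 it averaged 0.50 ± 3.27 in KO and 2.14 ± 1.10 in WT (SD, n = 4 each), a difference of -1.64 (SE 1.33). The difference between the sets was -3.35 (SE 2.04) and did not pass (limma interaction, adjusted p = 0.877). The second probe had the same signs, with 0.82 in set 1 and -0.98 in set 2. On KO set 2 replicates 1 and 2 both probes were at background, the first at -1.61 and -1.60. The set 2 differences of Ccnd3 therefore rest in part on background values.

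Ccnd1, which is the main D-type cyclin of many epithelial tissues and is usually low in lymphocytes, was detected on 5 KO and 7 WT arrays. It ran from -3.26 over a median of 0.02 to 8.26 in KO and from -1.24 over -0.78 to 2.86 in WT. The value of 8.26 belonged to KO set 2 replicate 2, the array with 20.6% of probes above background, and the next highest KO array stood at 2.28. The difference was 0.55 (95% interval -2.38 to 3.49, limma adjusted p = 0.863) and was -0.73 without that array.

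Of the E-type cyclins, Ccne1 was read on part of the arrays, and its probes did not follow each other. Probe 1 was detected on 3 KO and 5 WT arrays, at -1.07 ± 2.54 in KO and -1.14 ± 2.03 in WT (SD, n = 7 each), with a difference of 0.075 (95% interval -1.81 to 1.96, limma adjusted p = 0.973). Probe 2 was detected on as many arrays and differed by 0.12 (95% interval -2.25 to 2.50, limma adjusted p = 0.965). Over the 14 arrays the probes, whose first bases are shown above, had a Pearson's r of -0.33. That r includes arrays on which 1 or both probes lay at background. On KO set 1 replicate 4, for example, probe 1 stood at 3.61 and probe 2, at background there, at -5.33. On KO set 2 replicate 4 and WT set 2 replicate 2 probe 2 was detected and probe 1 was not. On WT set 2 replicate 3 probe 1 was detected and probe 2 was not. The probes thus disagreed in detection on these arrays, in both directions. The r does not tell how their levels compare where both were detected. In set 1 they differed by 1.33 and -1.55 and in set 2 by -0.86 and 1.38, so that no direction for Ccne1 can be given.

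Ccne2, the other E-type cyclin, was detected on 0 KO and 0 WT arrays. Its values, -6.73 to -1.77 in KO and -6.47 to -4.83 in WT, are background on arrays of unequal scale, so they have no order. No difference between the genotypes is read from them, and no test is given. Before scaling the mean log2 intensity was 1.80 in KO and 1.74 in WT. The A- and T-rich probe printed above is the one Ccne2 probe on the array.

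Of the kinases, Cdk4, the catalytic partner of the D-type cyclins, had the largest positive differences of the 10 tested probes with this scaling, and its 3 probes were detected on all 14 arrays. Probe 1 stood at 3.98, 4.05 and 6.97 in KO set 1 and at 6.80, 9.47, 5.88 and 3.31 in KO set 2. In WT it stood at 4.80, 2.56 and 3.04 in set 1 and at 3.08, 4.92, 4.70 and 3.68 in set 2. The 4 KO arrays above all WT arrays were again those with under 40% of probes above background, at 5.88 to 9.47, and the other 3 KO arrays, at 3.31 to 4.05, lay inside the WT range.

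The mean of probe 1 was 5.78 ± 2.17 in KO and 3.83 ± 0.98 in WT (SD, n = 7 each), a difference of 1.95 (95% interval 0.14 to 3.76, limma adjusted p = 0.363, and two-sided exact permutation within sets, p = 0.0486). Probes 2 and 3 differed by 1.60 (limma adjusted p = 0.409) and 2.05 (limma adjusted p = 0.358). Relative to the median of all tested probes the 3 differences were 1.63, 1.28 and 1.73. Pearson's r between the Cdk4 probes was 0.929 to 0.998 over 14 arrays, which share their brightness.

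The Cdk4 difference kept its sign under the scalings given here and became smaller. Probe 1 differed by 0.62 with the all-array scaling, by 0.61 with quantile normalization and by 0.85 before scaling, and none of these passed. Without the 4 dim KO arrays, an alternative chosen with earlier results known, the differences of the 3 probes were 0.02, -0.76 and 0.04. The plot of levels against array brightness shows this split.

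**Figure D2:**
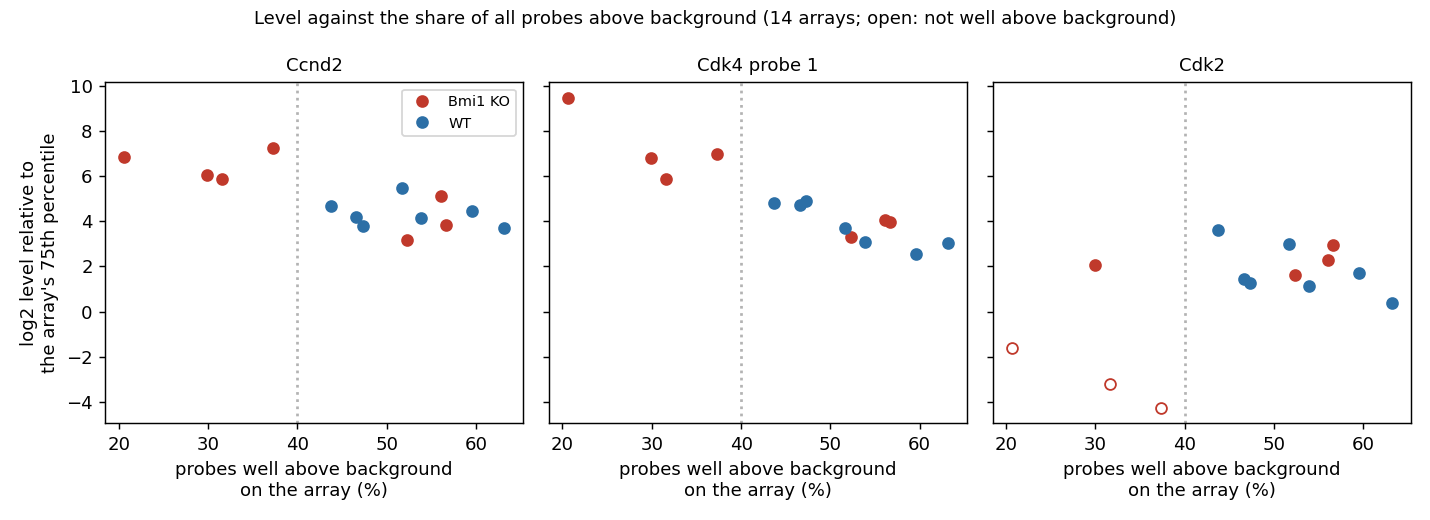
Level of Ccnd2, Cdk4 probe 1 and Cdk2 (log2 intensity relative to the array's 75th percentile) against the percentage of all probes well above background on the same array, with 7 Bmi1 KO arrays in red and 7 WT arrays in blue and a dotted line at 40%. Left of the line, Ccnd2 and Cdk4 stand above all WT arrays on the 4 KO arrays, and Cdk2 is not well above background (open) on 3 of them.

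Cdk2, the partner of the E-type cyclins, had the largest negative difference with this scaling. It stood at 2.97, 2.27 and -4.26 in KO set 1 and at 2.06, -1.61, -3.21 and 1.64 in KO set 2. In WT it stood at 3.62, 1.70 and 0.38 in set 1 and at 1.15, 1.25, 1.45 and 3.01 in set 2. The probe was detected on 4 KO and 7 WT arrays, and the 3 KO arrays without signal, all among the 4 dim ones, were the 3 that lay below all WT arrays.

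The mean Cdk2 level was -0.021 ± 2.94 in KO and 1.79 ± 1.13 in WT (SD, n = 7 each), a difference of -1.81 (95% interval -4.15 to 0.53, limma adjusted p = 0.427). The all-array scaling gave -3.15 (limma adjusted p = 0.228), and leaving out the 4 dim KO arrays gave 0.41. The 4 KO arrays on which Cdk2 was read stood at 1.64 to 2.97, within the WT range of 0.38 to 3.62.

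Cdk6, the second kinase of the D-type cyclins, was detected on 1 KO and 3 WT arrays. Its level ran from -6.37 over a median of -2.31 to -1.30 in KO and from -5.54 over -3.43 to -1.17 in WT. The groups overlapped throughout, with a difference of -0.013 (two-sided exact permutation within sets, p = 0.984), and most of these values lie at background.

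**Figure D3:**
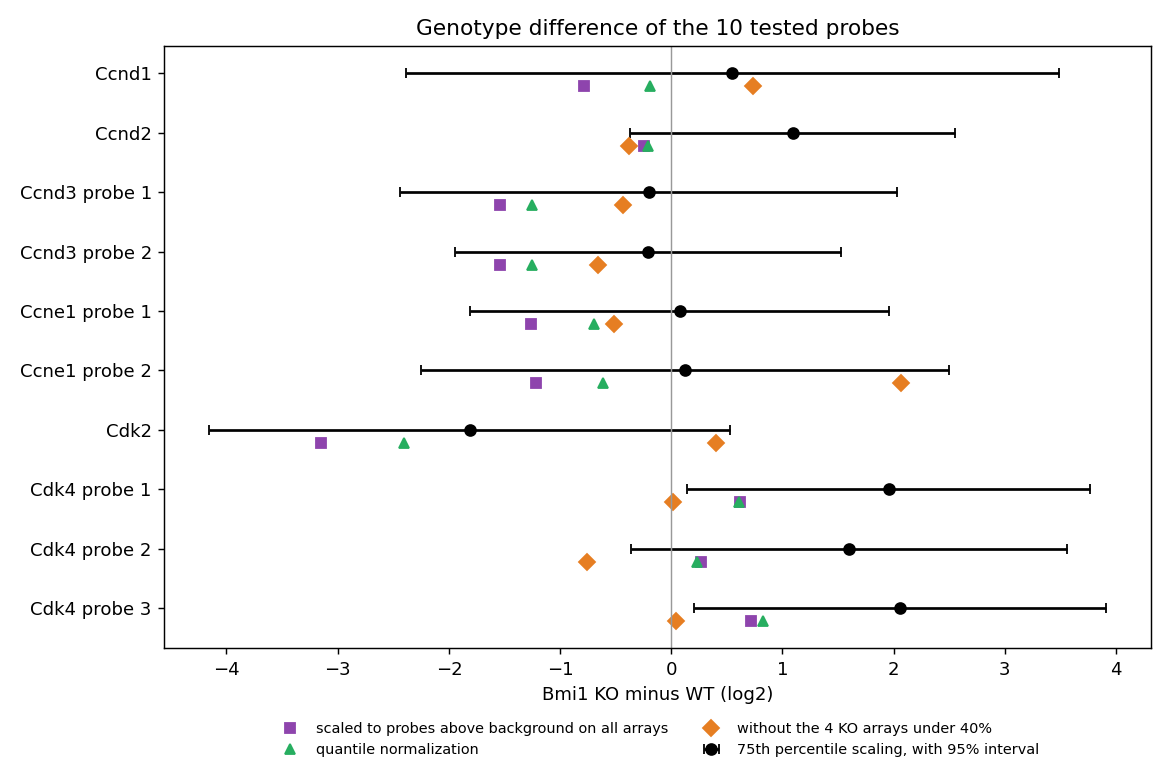
Bmi1 KO minus WT difference (log2) of the 10 tested probes, with 95% intervals for the 75th percentile scaling (black), and the same difference with the all-array scaling (squares), with quantile normalization (triangles) and without the 4 KO arrays under 40% (diamonds). The diamonds lie near 0 for Cdk4 probes 1 and 3, at -0.76 for Cdk4 probe 2, at -0.38 for Ccnd2, at 0.41 for Cdk2 and at 2.06 for Ccne1 probe 2.

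Within the sets, 0 member probes passed in set 1 (0.0236% of all tested probes called) and 0 in set 2 (0.0135% called), by limma with 4 group means. An unadjusted p under 0.05 was found for 0 member probes in set 1 and 0 in set 2, beside 7.79% and 13.1% of all tested probes. Cdk4 probe 1 differed by 1.54 (SE 1.34) in set 1 and by 2.27 (SE 1.16) in set 2. Ccnd2 differed by 1.12 (SE 1.08) in set 1 and by 1.07 (SE 0.93) in set 2, and Cdk2 by -1.57 (SE 1.75) and -1.99 (SE 1.52). With this scaling each of these signs was the same in both sets, as the plot by set shows. For Ccnd2 the sets pointed opposite ways with the all-array scaling (0.44 in set 1 and -0.76 in set 2), quantile normalization (0.47 and -0.72) and normexp (0.41 and -0.65). The test of a set-dependent difference passed for 0 member probes, with 0% of all tested probes called, and 0 member probes had an unadjusted p under 0.05 for it, beside 5.36% of all tested probes.

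**Figure D4:**
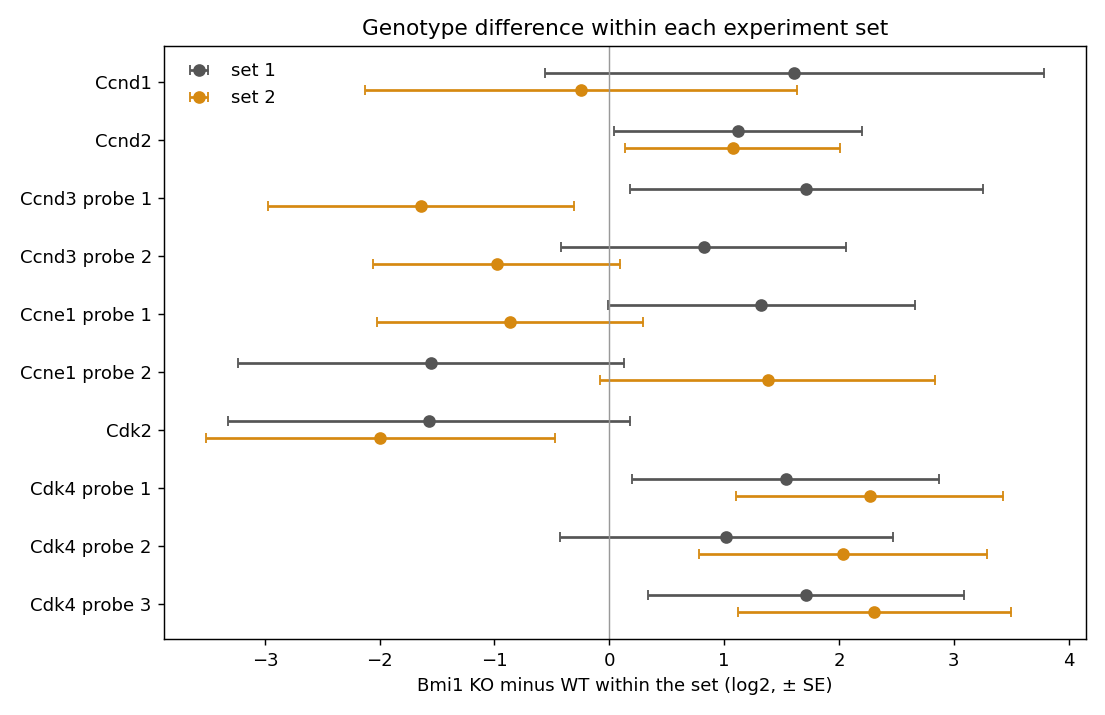
Bmi1 KO minus WT difference (log2, ± SE) of the 10 tested probes within experiment set 1 (3 arrays per genotype, grey) and set 2 (4 per genotype, orange). With the 75th percentile scaling Ccnd2, Cdk2 and the Cdk4 probes lie on the same side of 0 in both sets (Ccnd2 does not with the all-array scaling, quantile normalization or normexp), and Ccnd1, Ccnd3 and Ccne1 do not.

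Ratios between members on the same array do not depend on a factor by which the whole array is scaled, and are given as a description with no test. The log2 ratio of Cdk2 to Cdk4 probe 1 averaged -5.80 ± 4.57 in KO and -2.03 ± 1.19 in WT (SD, n = 7 each), with 4 KO arrays lower than every WT array, on 3 of which Cdk2 is at background. The ratio of Ccnd2 to Cdk4 averaged -0.33 ± 1.15 in KO and 0.53 ± 1.16 in WT, with 1 KO array lower than every WT array. The ratio of Ccnd2 to Ccnd3 averaged 3.39 ± 3.38 in KO and 2.09 ± 0.76 in WT, with 2 KO arrays above and 2 below all WT arrays. Ccnd3 was at background on both KO arrays that lay above, KO set 2 replicates 1 and 2, at 7.68 and 8.46. The ratio of Ccnd1 to Ccnd2 averaged -4.81 ± 3.88 in KO and -4.27 ± 1.36 in WT, with 2 KO arrays above and 4 below all WT arrays. Of those below, Ccnd1 was at background on KO set 2 replicates 1 and 3, at -9.33 and -8.22. It was detected on KO set 1 replicates 3 and 4, at -5.75 and -7.07. The ratio of Cdk4 to Cdk6, where Cdk6 is mostly at background, averaged 8.94 ± 2.23 in KO and 6.97 ± 1.53 in WT. That of Ccne1 to Ccne2, with Ccne2 at background throughout, averaged 3.49 ± 3.62 in KO and 4.57 ± 2.37 in WT. Ccnd2 to Cdk4 is the one of these pairs with both probes detected on every array, and the spread of the others holds ratios to a probe at background.

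**Figure D5:**
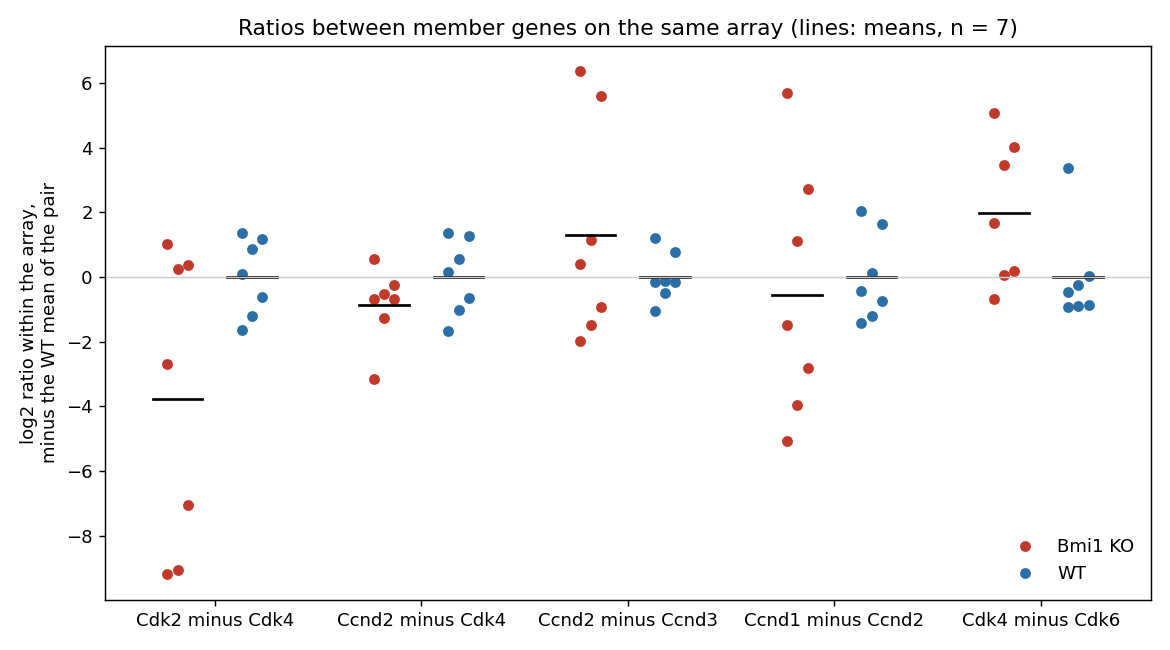
Log2 ratio between member genes on the same array, shown minus the WT mean of the pair, for 7 Bmi1 KO arrays (red, left of each pair) and 7 WT arrays (blue), with lines at the means. For Cdk2 to Cdk4 4 KO arrays lie below all WT arrays, with Cdk2 at background on 3 of them, and Ccnd2 to Cdk4 is the pair detected on every array.

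Other genes of the G1/S pathway were read from 8 lists of 78 genes, of which 77 were on the array and 64 entered the test. By limma 0 passed in either direction, and 15 had an unadjusted p under 0.05, where 0.0245% of the 20407 genes tested were called and 13.3% had such a p. The median difference of the 64 genes was 0.76, beside 0.47 over all genes, and the gap between these medians was -0.018 to 0.377 when 1 array was left out, lowest without WT set 2 replicate 4. The smallest adjusted p among them was 0.282, that of Mki67, the proliferation antigen, at 4.76 ± 2.95 in KO and 1.18 ± 1.94 in WT (SD, n = 7 each).

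Differences of single pathway genes, here and below, are given with the percentile scaling of the main test alone. With it the median difference was 1.07 over the probes above background on all 14 arrays. The median over all tested probes went from 0.32 to -1.02 with the all-array scaling, and the difference of Ccnd2 from 1.09 to -0.24. The smaller positive differences below may therefore change sign with the scaling, and this was not tested. Among S phase genes 14 of 16 were tested, with differences of 3.58 for Mki67 and 1.53 for Pcna, the sliding clamp of DNA replication, and a median of 1.19. Of 7 inhibitors 5 were tested, and the CDK4/6 inhibitors Cdkn2b and Cdkn2c differed by 2.45 and 2.60 and Cdkn1b, which encodes p27Kip1, by 0.98. Cdkn2b was detected on 4 KO and 1 WT arrays, so most of its WT values lie at background, and Cdkn2a and Cdkn1c were too dim to be tested. Of the pocket proteins, the substrates of these kinases, Rb1 differed by 2.43, Rbl1 by 0.10 and Rbl2 by -0.0074.

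Of 10 E2F and DP factors, which the pocket proteins restrain, 8 were tested, and E2f1, E2f3 and E2f4 differed by -2.02, -2.32 and 1.47. E2f1 was detected on 4 KO and 7 WT arrays, and E2f3 on 3 KO and 7 WT arrays. Of the CDK-activating kinase and the phosphatases and kinases that act on CDKs, 6 of 8 were tested, and Wee1 and Pkmyt1, which phosphorylate CDKs and hold them inactive, differed by 2.19 and 2.73 and Ccnh, the cyclin of the CDK-activating kinase, by -1.18. Wee1 was detected on 4 KO and 3 WT arrays, Pkmyt1 on 6 KO and 5 WT arrays and Ccnh on 1 KO and 5 WT arrays, so that the differences of Wee1 and Ccnh rest largely on values at background. Of 12 cyclin turnover genes 10 were tested, led by Cks1b (2.60), the cofactor of the ligase that marks p27Kip1, Fbxo31 (1.07) and Cks2 (1.46). Of 10 other cyclins and CDKs 6 were tested, led by Ccnb2 (1.81), Ccng1 (1.29) and Ccnb1 (0.83), of which Ccnb2 was detected on 4 KO and 4 WT arrays and Ccnb1 on 3 KO and 6 WT arrays. All 12 genes upstream in B cells were tested, with a median of -0.36, and Btk, a kinase of B cell receptor signalling, and the transcription factor Foxo3 differed by 1.78 and -2.06. Foxo3 was detected on 2 KO and 6 WT arrays, so most of its KO values lie at background.

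The genes whose levels most resembled each member over the 14 arrays were sought among 6094 genes above background on at least 12 arrays, by Pearson's r of scaled log2 levels. Cdk4 was most like the ribosomal protein genes Rps12l2 (r = 0.969) and Rps24 (r = 0.969). Ccnd2 was most like Polr2d, a subunit of RNA polymerase II (r = 0.944), and Sipa1, a regulator of the GTPase Rap1 (r = 0.937). Ccnd3 was most like Terf2ip, a telomere protein (r = 0.939). Ccnd1 was most like Tomm40, a channel of mitochondrial import (r = 0.911), and Kin (r = 0.907). Cdk2 was most like Akirin1 (r = 0.879) and Fcho2 (r = 0.854), and Ccne1 probe 1 most like Myo9b (r = 0.881) and Unc13a (r = 0.835). These values are a description, and the arrays share the brightness and scaling described above.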

How the data were processed

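RNA of each B-1a sample was hybridised to a one-colour mouse array. Set was read from the numbering style of the titles. By the slide label in the name of each scan, all arrays of set 1 shared a slide. Those of set 2 were on 2 other slides, 1 of them with WT arrays alone. Per the file headers, Cy3 intensity was deposited as read and detrended by Agilent Feature Extraction 10.7.3.1, and positions are mm9. Marks for signal well above background, outliers and saturation were deposited as a score of 0 or 1 per spot. The deposited matrix of log2 values, used as an alternative, has a median of 3.952 in every column, and each column kept the order of that array's scanner intensities (Spearman's rho of at least 0.999). The sources used here do not name the authors' tool for it.

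From each array's log2 processed intensity its 75th percentile (non-control spots) was subtracted, and the result was analysed, without outlier spots and with spots of a probe averaged. Probes detected on 4 or more arrays of a genotype were tested. Every member probe was unsaturated and unmarked as an outlier on each array. The fit was made with limma 3.58.1 (R 4.3.3) with a term for set; sets were compared in a model with 4 group means; single probes were tested by exact permutation within sets (1400 arrangements). The code was tested on simulated data. Figures used matplotlib 3.10.9 in Python 3.11.15.

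A gene of a pathway list is its brightest tested probe. All members were named, with up to 3 genes of each list by smallest p and the 2 genes most like each tested member; some genes this rule selects are not reported here. Members, lists and alternatives were chosen with earlier results of these data known. Precision is limited by the number of arrays.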

Additional observations from a re-analysis of the deposited data

Results flagged for a closer look

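Within WT set 2, Cdk2 stood at 3.01 on replicate 4, and the nearest of the other 3 arrays stood at 1.45, a gap of 0.838 of the group's range. It was 1 of 48 groups of member probe values examined for such a gap (each genotype, and each genotype in set 2), where chance flags about 5% of groups.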

How the results depend on the processing

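The count of member probes called was 0 in each direction under all alternatives run, as was the count within sets and for the difference between sets, and the count of pathway genes under those run for it. It was also 0 without each array in turn. Member probes with an unadjusted p under 0.05, 2 as reported, numbered 0 with quantile normalization, normexp, the deposited values, unscaled values, slide as a fixed block or without the 4 dim KO arrays, 1 with the all-array scaling (Cdk2, lower in KO), 1 with 1 probe per gene (Cdk4), and 0 to 4 without 1 array (4 without KO set 2 replicate 4). Over all probes, 8 were called lower and 1 higher with the 75th percentile, against 131 and 1 with scaling to the probes detected on all arrays (the all-array scaling), 25 and 1 with quantile normalization or the deposited values, 30 and 3 with normexp, 95 and 1 unscaled (an alternative chosen after seeing the data), 1 and 0 among probes detected on all arrays, 8 and 0 with slide as a fixed block, 4 and 1 with 1 probe per gene and 5 and 0 without the dim arrays. Leaving out 1 array gave 5 to 49 lower and 0 to 16 higher, both highest without KO set 1 replicate 3. The all-probe median was 0.32, and -1.02, -0.16, -0.003 and -0.78 with the all-array scaling, quantile normalization, normexp and unscaled values. In that order the difference turned to -0.24, -0.21, -0.20 and -0.007 for Ccnd2 (-0.21 with the deposited values) and to -1.26, -0.69, -0.036 and -1.03 for Ccne1 probe 1 (-0.695 with the deposited values). Ccne1 probe 2 turned to -1.22, -0.61 and -0.98 and Ccnd1 to -0.79, -0.19 and -0.55 without normexp. The deposited values gave -0.61 for Ccne1 probe 2 and -0.19 for Ccnd1. For Ccne2, at background on every array, KO minus WT was 1.16 with the 75th percentile and 0.11 with quantile normalization. It was -0.18 with the all-array scaling and -0.005 with normexp. These Ccne2 numbers compare background on arrays of unequal scale, so their sign cannot show a change in Ccne2 RNA. Slide as a fixed block turned Ccnd3 probe 1 to 0.41 and Ccne1 probe 1 to -0.62. Without the 4 dim KO arrays Ccne1 probe 1, Ccnd2, Cdk2 and Cdk4 probe 2 turned to -0.52, -0.38, 0.41 and -0.76, and Ccne1 probe 2 differed by 2.06. In set 2, Ccnd2 turned to -0.76, -0.72, -0.65 and -0.72 and Ccne1 probe 2 to -0.45, -0.001 and 0 (no normexp) with the all-array scaling, quantile normalization, normexp and the deposited values. Set 2 minus set 1 turned, in the same order, to -0.42, -0.53, -0.50 and -0.53 for Cdk4 probe 1, to -0.14, -0.21, -0.25 and -0.21 for probe 2 and to -0.56, -0.81, -0.72 and -0.81 for probe 3. Leaving out 1 array gave -0.92 to 0.30 for Ccnd3 probe 1, -0.65 to 0.18 for its probe 2, -0.49 to 0.54 and -0.67 to 0.85 for Ccne1 probes 1 and 2, and -0.73 to 1.32 for Ccnd1, while Ccnd2 (0.75 to 1.51), Cdk2 (-2.33 to -0.98) and Cdk4 probe 1 (1.37 to 2.47) kept their sign. The cause of these changes was not tested. With set and replicate number as a replicate block, 0 member probes and 7 lower and 1 higher of all probes were called. Same-numbered arrays correlated at -0.22 to 0.19 in their deviations from the group means. With 3 or 4 arrays per group and unequal brightness, these correlations cannot tell whether the numbers pair the samples. Arrays at which a probe lies at background limit what can be read for Ccnd1, Ccnd3, Cdk2, Cdk6 and the E-type cyclins.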
